A study of Homo sapiens with 9 samples.

Results

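The replication clamp and the genes that load and use it were examined in WI-38 cells after doxorubicin, a drug that damages DNA through topoisomerase II. The genes were found by name among the rows of the deposited table, the names being PCNA, PCLAF, RFC1, RFC2, RFC3, RFC4, RFC5, FEN1 and LIG1. Of these 9 names 8 had a row, out of 6499 genes in the table, and LIG1 was not analysed here. The study set limits of 1.2 on the fold and 0.05 on p in its own comparison of these same libraries. The table is taken to hold only genes that passed them, which was not checked on the study's own fold and p. On that reading the difference between the groups chose every row. For the 8 genes it is described below with no p-value, and a call by limma on them repeats that choice and tests nothing.

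PCNA forms a ring of identical subunits that slides along DNA and holds the polymerase on its template. The ring is opened and closed around DNA by replication factor C, a complex of the RFC1, RFC2, RFC3, RFC4 and RFC5 proteins that uses ATP, and FEN1, the flap endonuclease, binds the ring to trim the displaced end of each Okazaki fragment before DNA ligase I seals the nick. PCLAF is a small protein that binds PCNA during S phase, and it is made mainly in dividing cells, while PCNA is also used in DNA repair and its gene is a known target of both E2F and p53.

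WI-38 is a human fibroblast line from lung whose diploid cells stop dividing after many passages, and it was used at population doubling 30. The control group received DMSO and then medium with DMSO, and the doxorubicin group received the drug at 1 μM over 12 h, followed by 48 h in medium with DMSO. A further group received oridonin, a plant diterpenoid, in that second step, and its 3 libraries were not analysed here. Each of the groups compared had 3 libraries, all from 1 cell line, and the labels do not say that they came from separate cultures, so the spread between them may be technical.

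Values are TPM, which are scaled for gene length and library. The unit is not named in the table and was inferred, and it keeps no read depth, so depth is unknown and precision rests on the 3 libraries of a group. The genes of the table made up 54.3 to 54.8% of each control library's TPM total and 58.6 to 60.0% of each doxorubicin library's. That total was not observed but taken as the fixed total that TPM has by definition, so these shares rest on the inferred unit. Over the genes that averaged 1 TPM or more, Pearson's r of log2(TPM + 1) lay within 0.992 to 0.995 for pairs from the same group. For pairs from different groups it lay within 0.935 to 0.958, in a table taken to be cut on the group difference. No library stood apart from its group. Of 12 fibroblast markers 6 had a row, among them COL1A1 and COL1A2 at 1734 TPM or more in every library, and their summed level was 10315 to 10640 TPM in control and 9424 to 11501 TPM after doxorubicin. Of these 6, FN1 rose and COL3A1, PDGFRA, PDGFRB, COL1A1 and COL1A2 fell. Of 12 markers of epithelial, blood, endothelial and liver cells 4 had a row, with a summed level of 81.5 to 83.2 TPM in control and 139 to 145 TPM after doxorubicin. CD68 (0.94 on the log2 scale) and KRT18 (0.60) rose, KRT8 did not pass the test, and PTPRC, which defines white blood cells, was near 0 at 0.01 to 0.62 TPM. The part of these marker genes in the results below was not tested.

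The start regions of the genes are shown first, because promoters of replication genes are known for E2F and CCAAT elements and the 8 genes moved in opposite directions. RefSeq windows of 300 bases (250 before and 50 after an annotated start, GRCh38.p14) matched all 8 genes, with 10 windows in all, since PCNA and PCLAF have more than 1 start. Both strands were searched for CCAAT, for an E2F site (TTTGGCGC, TTTGCCGC, TTTCGCGC or TTTCCCGC), for the p53 half-site and full site, and for TTTGAA, the core of the CHR element, and overlapping matches were counted. Only bases outside annotated exons are printed, 5′ to 3′ on the strand of the gene, with matches in capitals, and a match on the other strand reads as its reverse complement (ATTGG for CCAAT, GCGGGAAA for TTTCCCGC).
PCNA, chr20:5126627-5126785, minus strand: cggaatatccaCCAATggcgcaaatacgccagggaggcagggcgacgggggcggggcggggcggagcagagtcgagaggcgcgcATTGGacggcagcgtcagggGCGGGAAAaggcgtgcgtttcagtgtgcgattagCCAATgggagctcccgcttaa
PCNA, second start, chr20:5120027-5120208, minus strand: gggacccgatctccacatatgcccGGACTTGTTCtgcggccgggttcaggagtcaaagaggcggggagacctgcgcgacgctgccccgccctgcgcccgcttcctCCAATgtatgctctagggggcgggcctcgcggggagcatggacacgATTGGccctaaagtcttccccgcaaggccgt
PCLAF, chr15:64381511-64381691, minus strand: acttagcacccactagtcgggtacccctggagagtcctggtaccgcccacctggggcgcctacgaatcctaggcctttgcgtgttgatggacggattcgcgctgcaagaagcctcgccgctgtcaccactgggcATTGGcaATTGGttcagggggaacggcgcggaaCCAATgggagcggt
RFC5, chr12:118016453-118016700, plus strand: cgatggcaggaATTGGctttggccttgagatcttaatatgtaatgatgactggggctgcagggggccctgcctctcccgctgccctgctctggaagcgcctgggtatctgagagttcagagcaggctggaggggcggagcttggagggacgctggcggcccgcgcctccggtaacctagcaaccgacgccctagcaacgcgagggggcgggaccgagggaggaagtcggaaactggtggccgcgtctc
These letters say where a motif is written and nothing about binding in these cells.

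The window at the first PCNA start held 3 CCAAT matches, 152, 79 and 25 bases before the start, and 1 E2F match 59 bases before it. The second PCNA start, which lies inside the gene, had 2 CCAAT matches and 1 p53 half-site, the run GGACTTGTTC 226 bases before it. PCLAF had 4 CCAAT matches within 116 bases of 1 of its starts and 1 E2F match 45 bases before it, of which the CCAAT match at 33 bases and the E2F match fall in exonic bases that are not printed, and its other start had 1 p53 half-site. RFC5 and RFC1 each had 1 CCAAT match, RFC3 had 1 E2F match and 1 p53 half-site, and the windows of RFC2, RFC4 and FEN1 had none of these motifs. No window of the 8 genes held TTTGAA or an exact match to the p53 full site. The p53 half-site was searched as RRRCWWGYYY (R is A or G, W is A or T, Y is C or T). The full site was a pair of these with or without a short gap. No mismatch was allowed for any motif, so p53 sites that depart from this pattern, at PCNA included, were not looked for. Over all 35116 RefSeq windows of this length, 34.6% held CCAAT, 3.31% the E2F site, 6.63% the p53 half-site, 0.0285% the p53 full site and 15.2% TTTGAA. In this exact form the full site is so rare that its absence here says little about the 8 genes. PCNA and PCLAF thus both had CCAAT and E2F matches near 1 of their starts, and which start is used in these cells was not tested.

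After doxorubicin PCNA was higher while its PCLAF partner, all 5 subunits of its loader and FEN1 were lower. In bulk RNA, fewer cells of a type and less RNA per cell cannot be told apart. Calls come from a limma fit over the 5721 genes that averaged 1 TPM or more, and need a fold over 1.2 in either direction with an unadjusted p under 0.05, and all 8 genes were among them. As a description of the fit, 1 of the 8 was called higher, beside 23.4% of all genes tested, and 7 were called lower, beside 49.0%. With p-values adjusted by the method of Benjamini and Hochberg the calls of the 8 were the same in number, beside 22.7% higher and 48.5% lower. The groups did not overlap for PCNA, higher, beside 32.3% of all genes tested, nor for 6 of the 7 lower genes, beside 48.4%. These shares are those of a table taken to be cut on the same comparison, and nothing is read from them about the 8 genes. The median log2 difference of all genes tested was -0.28, so differences relative to it are given as well.

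**Figure D1:**
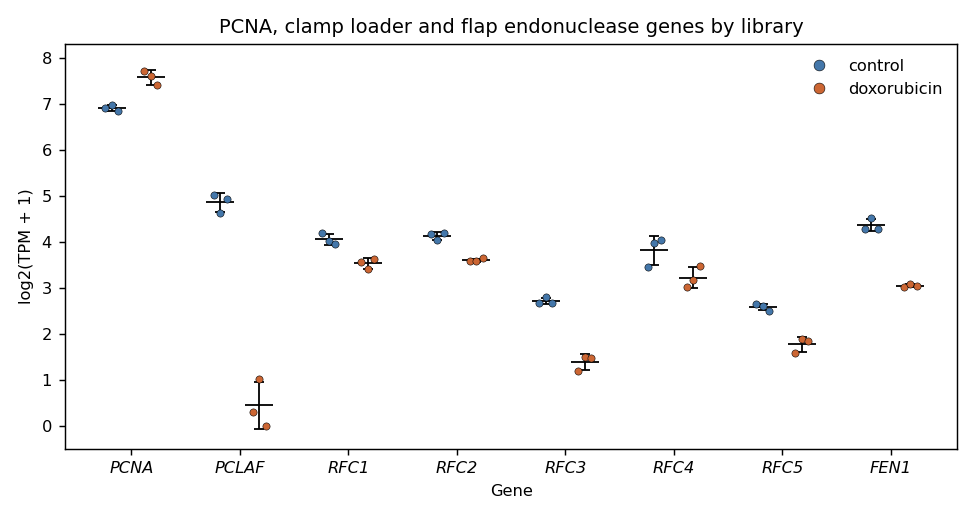
Level of each of the 8 genes in every library, as log2(TPM + 1), with points for the 3 control libraries (blue) and the 3 doxorubicin libraries (orange), a line at the mean and bars of 1 SD. PCNA is the only gene whose doxorubicin points lie above its control points, PCLAF drops to near 0, and the groups of RFC4 touch.

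PCNA (ENSG00000132646), on the minus strand of chromosome 20 from 5114953 to 5126626 (GRCh38), was at 119, 124 and 115 TPM in control libraries 1 to 3 and at 209.9, 194 and 168 TPM in doxorubicin libraries 1 to 3. Every doxorubicin library lay above every control library, and the spread was wider after doxorubicin. The mean went from 119 ± 4.90 to 191 ± 21.1 TPM (SD, n = 3), a ratio of 1.60 and a log2 difference of 0.67 (SE 0.08) on the log2(TPM + 1) scale used for all log2 differences here. Set against that median the difference was 0.95, and 336 of the 5721 genes tested had a larger one. PCNA was already abundant, with a control level at the 90.1 percentile of the genes tested.

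PCLAF (ENSG00000166803), on the minus strand of chromosome 15 from 64364311 to 64387687, was at 31.3, 23.5 and 29.7 TPM in control and at 0.24, 1.02 and 0 TPM after doxorubicin. It was near 0 in each doxorubicin library and listed at 0 in the third, where 51 of the 6499 genes of the table are listed at 0. Its log2 difference was -4.42 (SE 0.23), the fourth lowest of the genes tested, and with a pseudocount of 0.1 in place of 1 it was -6.38, so its size depends on that constant. PCLAF shares 1077 exonic bases (28.8% of its own) with a gene on the same strand, ENSG00000259316, annotated as AC087632.1 from 64181180 to 64381440 of chromosome 15, and reads of these bases could have been assigned to either. That gene was at 37.8, 38.1 and 35.8 TPM in control and at 0.76, 0.35 and 0.79 TPM after doxorubicin. The sum of the pair was 65.4 ± 3.75 TPM in control and 1.05 ± 0.294 TPM after doxorubicin (SD, n = 3), so the pair was low together however the shared reads were split.

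RFC1 (ENSG00000035928; chromosome 4, 39287456 to 39366375, minus strand), the large subunit of the loader, was at 17.2, 15.3 and 14.5 TPM in control and at 10.9, 9.54 and 11.4 TPM after doxorubicin. RFC2 (ENSG00000049541; chromosome 7, 74231499 to 74254458, minus strand), a small subunit that binds ATP, was at 17.0, 15.4 and 17.3 TPM in control and at 11.1, 10.9 and 11.4 TPM after doxorubicin. Neither gene had overlapping groups, and the means were 32.4% lower for RFC1 (log2 difference -0.52, SE 0.11) and 32.8% lower for RFC2 (-0.53, SE 0.10). RFC1 had the smallest fold of the 8 genes, a ratio of 0.676 between the mean TPM of the groups. The limit of 1.2 was set on the study's own fold, which was not used here, and other rows such as POLA2 (8.07 and 8.04 TPM) lie within 1.2 in TPM. Set against the median over all tested genes, RFC1 and RFC2 differed by -0.24 and -0.25.

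RFC3 (ENSG00000133119; chromosome 13, 33818049 to 33966558, plus strand), 1 of the small subunits, was at 5.36, 5.93 and 5.40 TPM in control and at 1.27, 1.82 and 1.79 TPM after doxorubicin. Its mean was 70.8% lower, with a log2 difference of -1.33 (SE 0.13), the lowest of the loader genes. RFC5 (ENSG00000111445; chromosome 12, 118013588 to 118033130, plus strand), another small subunit, was at 5.24, 5.06 and 4.67 TPM in control and at 2.0, 2.71 and 2.57 TPM after doxorubicin. Its mean was 51.4% lower, from 4.99 ± 0.291 to 2.43 ± 0.376 TPM (SD, n = 3), with a log2 difference of -0.81 (SE 0.13). The groups of RFC3 and of RFC5 did not overlap. Both genes are low in these cells, and a pseudocount of 1 takes up a larger share of their values: with 0.1 the log2 differences were -1.73 and -1.02.

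RFC4 (ENSG00000163918; chromosome 3, 186789880 to 186807058, minus strand), also a small subunit, was at 9.99, 14.7 and 15.3 TPM in control and at 7.09, 7.97 and 10.1 TPM after doxorubicin. The lowest control library lay just under the highest doxorubicin library, so the groups overlapped. Its mean was 37.1% lower, with a log2 difference of -0.60 (SE 0.17). RFC4 was not called with quantile normalization across the libraries (-0.32) or with libraries scaled to the same median (-0.35). In both it passed the fold limit and missed the limit on p. The other 7 genes were called in both, but RFC1 (-0.265 and -0.264) only just passed the fold limit. The differences of RFC2 (-0.287 and -0.272) were also smaller in size than those of RFC4 there.

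FEN1 (ENSG00000168496; chromosome 11, 61792637 to 61797244, plus strand) was at 18.5, 21.8 and 18.4 TPM in control and at 7.06, 7.44 and 7.19 TPM after doxorubicin. The doxorubicin libraries lay close together and far under the control libraries. Its mean was 63.1% lower, from 19.6 ± 1.96 to 7.23 ± 0.193 TPM (SD, n = 3), with a log2 difference of -1.32 (SE 0.11), close to that of RFC3. FEN1 shares 166 exonic bases (6.70% of its own) with TMEM258 on the other strand, and whether the counting used strand is not given in the sources used here. The annotation also holds processed pseudogenes of PCNA, RFC3, RFC5 and FEN1, to which reads of these genes could have been assigned, and none of these copies had a row. RFC4 overlaps EIF4A2 and RFC5 overlaps WSB2 on the other strand, and FEN1 overlaps FADS2 on its own strand, and these 3 neighbours had no row.

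The order of the 8 genes by level changed between the groups. In control it was PCNA, PCLAF, FEN1, RFC2, RFC1, RFC4, RFC3 and RFC5, and in that order only the neighbours RFC2 and RFC1, and RFC1 and RFC4, overlapped between libraries. After doxorubicin it was PCNA, RFC2, RFC1, RFC4, FEN1, RFC5, RFC3 and PCLAF, with overlap between RFC2 and RFC1, RFC1 and RFC4, and RFC4 and FEN1. PCLAF thus went from second to last, while PCNA stayed first in all 6 libraries.

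Ratios within a library do not change when all its values are multiplied by the same factor, and they set PCNA against the genes around it. Quantile normalization is no such factor, and all ratios here are of the values as deposited. For each 100 TPM of PCNA control libraries 1 to 3 had 26.3, 18.9 and 25.9 TPM of PCLAF, and doxorubicin libraries 1 to 3 had 0.114, 0.526 and 0 TPM. FEN1 went from 16.4 ± 1.05 to 3.83 ± 0.457 TPM per 100 TPM of PCNA, and RFC3 from 4.66 ± 0.139 to 0.870 ± 0.238 (SD, n = 3). RFC5 went from 4.18 ± 0.191 to 1.29 ± 0.302, RFC1 from 13.1 ± 1.13 to 5.62 ± 0.990, RFC2 from 13.9 ± 1.40 to 5.91 ± 0.801 and RFC4 from 11.2 ± 2.55 to 4.50 ± 1.35 (SD, n = 3). No ratio to PCNA overlapped between the groups, that of RFC4 included. For every gene but RFC4 this follows from the levels, since PCNA was higher and the gene lower without overlap, and it is no further result.

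**Figure D2:**
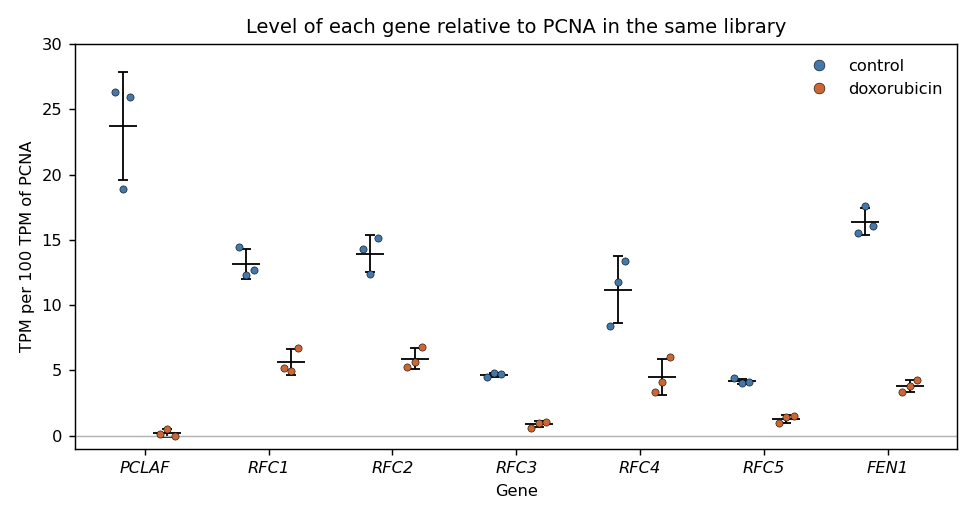
TPM of the 7 other genes per 100 TPM of PCNA in the same library, with points for the 3 control (blue) and 3 doxorubicin (orange) libraries, a line at the mean and bars of 1 SD. Every gene has a lower ratio in each doxorubicin library than in any control library, and PCLAF goes from 18.9 or more to 0.526 or less. For every gene but RFC4 the lower ratio follows from the levels of the gene and of PCNA.

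The 5 loader genes summed to 56.1 ± 1.27 TPM in control and 34.2 ± 2.68 TPM after doxorubicin (SD, n = 3). PCNA was at 2.17, 2.21 and 2.0 times that sum in control libraries 1 to 3 and at 6.50, 5.88 and 4.52 times it in doxorubicin libraries 1 to 3. The RNA of the ring therefore stood higher over that of its loader in every doxorubicin library, as follows from the higher PCNA and the lower sum.

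The loader subunits were not lowered to the same extent. RFC2 over RFC1 was 1.06 ± 0.112 in control and 1.06 ± 0.0769 after doxorubicin, and RFC4 over RFC1 was 0.866 ± 0.25 and 0.792 ± 0.124 (SD, n = 3), with overlap between the groups in both. RFC3 over RFC1 went from 0.357 ± 0.0397 to 0.155 ± 0.0370 and RFC5 over RFC1 from 0.319 ± 0.0128 to 0.231 ± 0.0502 (SD, n = 3), without overlap. RFC3 over RFC5 was above 1 in each control library (1.02, 1.17 and 1.16) and below 1 in each doxorubicin library (0.635, 0.672 and 0.696). RFC5 was the lowest loader gene in all 3 control libraries and RFC3 in all 3 doxorubicin libraries, and the highest loader gene over the lowest went from 3.34 ± 0.337 to 7.04 ± 1.46 (SD, n = 3).

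The other genes of the pathway were grouped by role in lists that were chosen with earlier results of these data known, and only genes with a row are covered. Each count below stands beside 23.4% of all genes tested called higher and 49.0% called lower, in a table taken to be cut on the same comparison. Nothing particular to a list is read from it. Among other clamps, clamp loaders and unloaders 4 of 10 had a row. CHTF18, the large subunit of an alternative loader that acts in sister chromatid cohesion, fell from 10.4 ± 0.925 to 5.64 ± 0.773 TPM (log2 difference -0.78), and DSCC1, a further subunit of that loader, fell from 1.94 ± 0.221 to 0.717 ± 0.156 TPM (-0.78; SD, n = 3). RAD9A, of the checkpoint clamp, did not pass the test at 6.92 ± 1.59 and 9.26 ± 2.87 TPM. ATAD5, which unloads PCNA, was under the filter at 0.42, 0.40 and 0.29 TPM in control and 0.06, 0.06 and 0.18 TPM after doxorubicin.

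A list of 15 Okazaki fragment and primer enzymes also took in nucleases and ligases of other roles. GEN1 and LIG4 are such genes, and both count among its falls. Of the 15, 12 had a row and 11 were tested, of which 0 rose, 7 fell and 4 did not pass, beside 49.0% of all genes tested called lower. The primase subunit PRIM1 fell from 2.90 ± 0.286 to 0.393 ± 0.139 TPM (log2 difference -1.49), and RNASEH2A, the catalytic subunit of RNase H2, from 26.7 ± 1.07 to 11.5 ± 0.771 TPM (-1.15; SD, n = 3). The nucleases EXO1 (-1.25) and GEN1 (-1.10), PARP1 (-0.95), which senses nicks, POLA1 (-0.83), the catalytic subunit of polymerase alpha, and LIG4 (-0.54), the ligase of end joining, fell too. LIG3 (-0.28), POLA2 (0.02), XRCC1 (0.13) and RNASEH2C (0.27) did not pass, and DNA2, the nuclease of long flaps, was under the filter at 1.15 TPM in control and 0.563 TPM after doxorubicin. The median of the list was -0.83, and 2 of its genes rose with quantile normalization or equal library medians, XRCC1 and RNASEH2C.

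Of 13 replicative polymerase and RPA genes 7 had a row, of which 1 rose, 5 fell and 1 did not pass (23.4% higher and 49.0% lower over all genes tested), with a median of -0.75. POLD4, the smallest subunit of polymerase delta, was at 56.8, 63.0 and 64.1 TPM in control and at 103, 117 and 108 TPM after doxorubicin, without overlap (log2 difference 0.82, SE 0.08). It rose as PCNA did, and PCNA over POLD4 was 1.95 ± 0.155 in control and 1.75 ± 0.258 after doxorubicin (SD, n = 3), with overlap. POLE2 (-1.27), POLD3 (-0.88), POLE (-0.84), POLD1 (-0.75) and the single-strand binding protein RPA1 (-0.36) fell, and POLDIP2 (0.12) did not pass.

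All 16 fork and CMG helicase genes had a row and were tested, and all 16 fell (15 with quantile normalization and 15 with equal library medians), beside 49.0% over all genes tested, with a median of -1.30. CDC45 fell from 9.61 ± 1.23 to 0.450 ± 0.181 TPM (log2 difference -2.87), MCM7 from 55.6 ± 2.12 to 11.5 ± 1.62 TPM (-2.19) and MCM5 from 23.4 ± 2.16 to 5.17 ± 1.02 TPM (-1.99; SD, n = 3). PCNA, FEN1 and the loader genes all had log2 differences above those of these 3 genes, and PCLAF had one below them.

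The next lists hold enzymes and partners that act on PCNA or with it. Of 22 genes of PCNA ubiquitin and SUMO enzymes and translesion polymerases 8 had a row and 7 were tested, of which 0 rose, 6 fell and REV3L (-0.12) did not pass, with a median of -0.70. The largest falls were PARPBP (-0.95), which limits recombination at PCNA, HLTF (-0.93), a ubiquitin ligase for PCNA, and USP1 (-0.84), which removes ubiquitin from PCNA. A list of 8 genes took in the CRL4-CDT2 ligase, which destroys its substrates on DNA-bound PCNA, with substrates of it and with GMNN, which inhibits the substrate CDT1 and is neither. Of these 5 had a row, of which 4 fell and 1 rose. DTL (-2.04), which recognises the substrates, CDT1 (-1.60) and GMNN (-1.27) fell most, and RBX1 (0.42), shared by many cullin ligases, rose. Of 13 PCNA partners in chromatin and methylation 10 had a row and 9 were tested, and all 9 fell (8 with quantile normalization and 6 with equal library medians), with a median of -0.96. LMNB1 (-3.35), a nuclear lamin, ASF1B (-2.86), a histone chaperone, and UHRF1 (-2.09), which recognises hemimethylated DNA, fell most. Of 17 PCNA partners in repair 8 had a row, of which 0 rose, 5 fell and 3 did not pass, with a median of -0.38, beside 49.0% called lower and a median of -0.28 over all genes tested. With quantile normalization 1 rose and 3 fell, and with equal library medians 2 rose and 3 fell. In the values as deposited TRAIP (-0.79), a ubiquitin ligase, and the uracil glycosylase UNG (-0.57) were among those that fell most.

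Over these 8 lists 70 of 114 genes had a row and 66 were tested, of which 2 (POLD4 and RBX1) rose, 54 fell and 10 did not pass, with a median of -0.84, beside 23.4% higher, 49.0% lower and a median of -0.28 for all genes tested. Of the 66, only POLD4 had a larger log2 difference than PCNA. The count that rose depended on the scaling: with quantile normalization it was 6 and with libraries scaled to the same median it was 8, and POLD4 and RBX1 were among them in both. It was 3 without control replicate 1 or 2, with RNASEH2C added, and 3 without doxorubicin replicate 1, with RAD9A added.

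**Figure D3:**
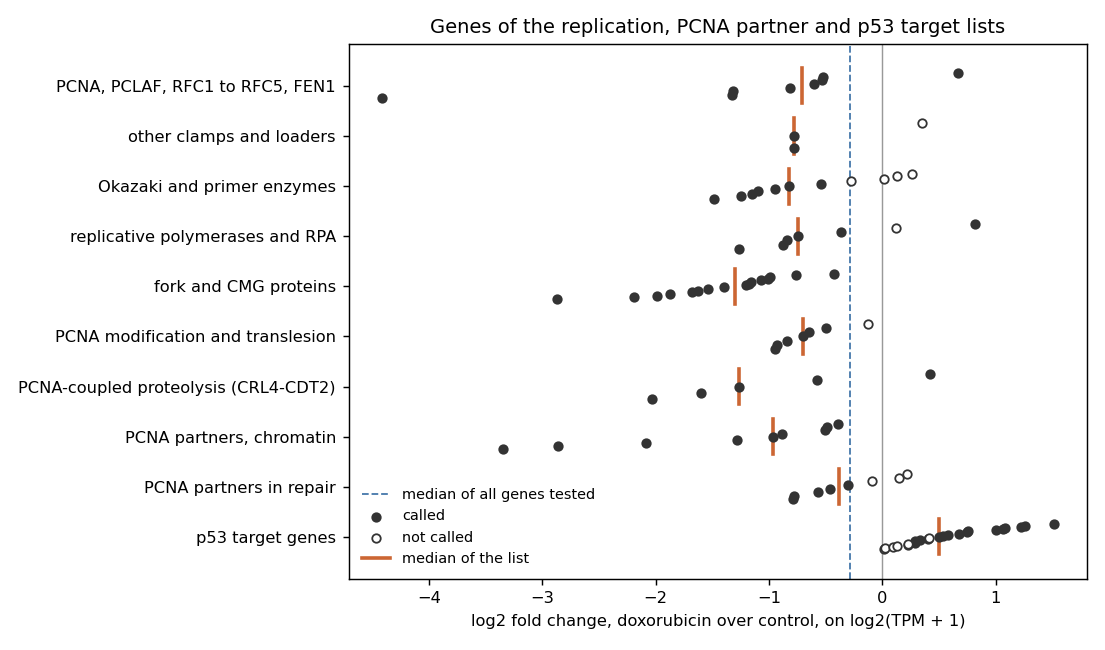
Log2 difference of doxorubicin over control on log2(TPM + 1) for the 8 genes and for each role list, with 1 point per tested gene, filled where called and open where not, an orange bar at the list's median and a dashed blue line at the median of all genes tested (-0.28). The replication lists lie mostly left of the dashed line, with PCNA, POLD4 and RBX1 filled on the right, and the p53 targets lie to the right of 0.

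PCNA was set beside other p53 targets because its gene is known as one. This list too was chosen with earlier results of these data known, so its shared direction is described and nothing is read from it. Whether p53 acted on PCNA here was not tested. Of 28 p53 target genes 23 had a row, of which 16 rose, 0 fell and 7 did not pass, with a median of 0.50, beside 23.4% higher and 49.0% lower over all genes tested. The count that rose was 20 with quantile normalization and 22 with equal library medians. FDXR (1.51), of mitochondrial electron transfer, MDM2 (1.26), the p53 ubiquitin ligase, and TP53I3 (1.23), an oxidoreductase, rose most, and 9 of the 23 had a larger log2 difference than PCNA. No target was called lower by limma, whether at an unadjusted or an adjusted p, and no log2 difference in the list was below 0.01. The 8 replication and PCNA partner lists ranged from -3.35 to 0.82 with a median of -0.84, and only POLD4 lay above PCNA. The 0.67 of PCNA thus lay within the range of both sets of genes, but near the top of the 8 lists.

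The genes with the pattern most like that of 3 of the genes were named by the root mean square difference of log2(TPM + 1) over the 6 libraries, after centring each gene on its mean. Nearest to PCNA were TSPAN10 (0.0196), SPSB2, CABYR, SEC11C and ENSG00000255439, none of them in a list above. Nearest to PCLAF were BIRC5 (0.304), PRC1, KIF20A, CDC20 and PLK1, of mitosis and cytokinesis, and BIRC5 itself was at 22.8 ± 0.916 TPM in control and 0.450 ± 0.255 TPM after doxorubicin (SD, n = 3). Nearest to RFC5 were EPHX4 (0.0478), TMEM51, HSPB6, MAP4K3 and GLRB. The points share 6 libraries in 2 groups, so likeness rests mostly on the size of the group difference, and with quantile normalization 0 of the 5 genes nearest to PCNA, 5 of the 5 nearest to PCLAF and 2 of the 5 nearest to RFC5 were the same. With a pseudocount of 0.1 these counts were 4, 3 and 2.

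The direction of each of the 8 differences was the same with each scaling tried. Quantile normalization and equal library medians brought the median of all genes tested from -0.28 to -0.01 and -0.04, and the share of calls that were higher from 32.3% to 53.1% and 57.8%. With these scalings PCNA was at 0.61 and 0.95, RFC5 at -0.43 and -0.59 and PCLAF at -4.22 and -4.24, while RFC1 and RFC2 lay between -0.29 and -0.26. The size of the smaller differences thus moved with the scaling.

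**Figure D4:**
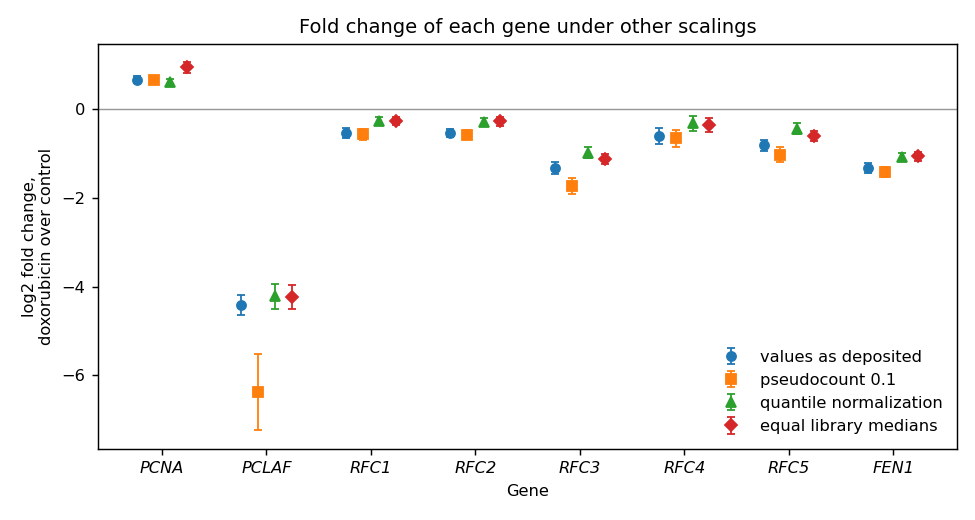
Log2 difference of each of the 8 genes (points) with its SE (bars) from the values as deposited, with a pseudocount of 0.1, with quantile normalization and with equal library medians. PCNA is above 0 and the 7 other genes below 0 in each case, and PCLAF moves from -4.42 to -6.38 with the smaller pseudocount.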

How the data were processed

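RNA of WI-38 cells was sequenced, and the 3 control and 3 doxorubicin libraries were compared. The authors deposited 1 table for control against doxorubicin with TPM values per gene and library, in a unit it does not name. The submitters' processing notes name CASAVA, HISAT2, StringTie, RSEM, DESeq2 and edgeR, without roles, and a mouse build, while the gene identifiers are human. The authors' fold change as a ratio, their log2 values and their p-values were deposited beside these and were not used, since they hold the study's own comparison.

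From these, log2(TPM + 1) was computed for the 5721 of 6499 genes that averaged 1 TPM or more across both groups. Group means were compared in R 4.3.3 with limma 3.58.1, using a robust eBayes with a trend, and this fit was tested on simulated data. A call needs a fold change over 1.2 and an unadjusted p under 0.05. The 8 genes and all lists were chosen with earlier results of these data known. Named are the 8 genes, all genes with a row in the clamp, Okazaki and polymerase lists, up to 3 largest rises and falls of every other list, and the 5 genes of most like pattern. A gene that this rule names is not reported here. PTPRC, COL1A1, COL1A2, KRT8, REV3L, CDKN1A and the neighbours that overlap one of the 8 genes fall outside that rule and were named after their values were seen. Positions are those of the GENCODE annotation of GRCh38. Alternatives were another pseudocount, filter, scaling, threshold, a replicate block and leaving out each library. Python 3.11.15, pandas 2.3.3 and NumPy 2.4.6 were used.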

Additional observations from a re-analysis of the deposited data

How the results depend on the processing

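Of 1337 genes called higher and 2805 called lower, a fold change over 2 left 104 and 359, quantile normalization gave 1698 lower, and equal library medians gave 2592 higher. Of the 8 genes a fold change over 2 left 0 called higher and 3 lower (PCLAF, RFC3 and FEN1). It left 6 p53 targets called higher, and 0 higher and 25 lower of the 8 replication and PCNA partner lists. The filter at a mean of 5 left 30 lower in these lists, since fewer genes were tested, and gave no value for RFC3 and RFC5. Genes of these lists called higher numbered 6 with quantile normalization and 8 with equal library medians. Equal library medians moved the log2 difference of PCNA to 0.95, RFC1 to -0.26, RFC2 to -0.27, RFC3 to -1.12, RFC5 to -0.59 and FEN1 to -1.06. Quantile normalization moved RFC1 to -0.26, RFC2 to -0.29, RFC3 to -0.98, RFC4 to -0.32, RFC5 to -0.43 and FEN1 to -1.07. A pseudocount of 0.1 moved PCLAF to -6.38, RFC3 to -1.73, RFC5 to -1.02 and FEN1 to -1.42. Beyond these constructions the cause was not tested.

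Without each library in turn, 1270 to 1321 genes were called higher and 2632 to 2847 lower, the 8 lists gave 2 to 3 higher and 51 to 54 lower, and 14 to 16 p53 targets were higher. The log2 differences were 0.59 to 0.75 for PCNA, -4.70 to -4.19 for PCLAF, -0.57 to -0.46 for RFC1, -0.58 to -0.50 for RFC2, -1.38 to -1.23 for RFC3, -0.78 to -0.50 for RFC4, -0.87 to -0.72 for RFC5 and -1.36 to -1.24 for FEN1, and 1 gene higher and 7 lower were called each time. The replicate numbers were not taken to pair the libraries. Deviations of same-numbered libraries correlated at -0.06, -0.19 and -0.23, which with 3 libraries in a group cannot settle whether they were paired. A replicate block gave 1288 genes higher and 2750 lower, with 1 and 7 of the 8 genes.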

Other observations

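The subunits of polymerase delta, the enzyme that PCNA holds on the lagging strand, differed in direction, with POLD4 higher and POLD1 and POLD3 lower after doxorubicin. POLD4 over POLD1 was 3.84, 5.56 and 6.81 in the control libraries and 18.6, 17.8 and 14.1 in the doxorubicin libraries, and POLD4 over POLD3 was 11.6, 14.6 and 15.0 in control and 62.2, 63.2 and 42.7 after doxorubicin. Neither ratio overlapped between the groups, as follows from the levels of these genes, which did not overlap either.

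CDKN1A, the cell cycle inhibitor p21 that binds PCNA, went from 696 ± 12.7 to 1456 ± 52.0 TPM (SD, n = 3). CDKN1A over PCNA was 5.86, 5.70 and 5.97 in control and 7.16, 7.57 and 8.32 after doxorubicin, so the RNA of the inhibitor was higher relative to that of the clamp in every doxorubicin library, although PCNA was itself higher.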
